A study of Homo sapiens with 6 samples.

Results

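The report concerns 45 genes of the G1/S transition and of DNA replication in U-87 cells, chosen by name and grouped by the step of replication they serve, out of 18417 genes measured. All 45 were measured, each by 1 probe set that carries a single gene symbol. U-87 is an established human glioma line, labelled as brain tissue, and P68 is an RNA helicase of the DEAD-box family, the product of DDX5. The study's title ties P68 to growth and invasion of glioma cells. Total RNA from 3 samples labelled P68 knockdown (cells transfected with an siRNA against P68) and from 3 labelled P68 wild type was hybridised to 1 Affymetrix gene-level array each. The labels name a second transfection reagent, abbreviated NC, without tying it to the wild-type samples. All samples were U-87 MG cells grown in complete DMEM with serum. Whether the samples of a group came from separate cultures is not stated, so each p-value rests on a spread between arrays that may be technical. In such bulk RNA, fewer cells in S phase and less RNA per cell cannot be told apart.

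Cells commit to a new round of DNA synthesis when cyclin D and cyclin E kinases release the E2F transcription factors from the retinoblastoma protein. E2F factors then drive genes for origin licensing, the replicative helicase, the polymerases and nucleotide synthesis, which therefore tend to be expressed together in cycling cells. In licensing, the origin recognition complex, CDC6 and CDT1 load rings of MCM2 to MCM7 onto DNA. CDC45 and the GINS complex turn the ring into an active helicase, primase and the polymerases copy the strands, and the sliding clamp PCNA holds the polymerases in place. In glioma, as in other tumours, these genes serve as markers of proliferation.

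Promoter sequence is shown for 6 of the genes, which were picked after their values were seen. PRIM1, ORC6, RRM1 and TK1 had the smallest p-values of the 45, and MCM7 and MCM6 encode subunits of the same ring whose signals lay on opposite sides of the wild type. The sequences are the 160 bases before the gene's start in RefSeq (GRCh38.p14), 5′ to 3′ on the gene's strand. For genes with several starts (3 for MCM7 and 2 for TK1) the sequences are those of the start farthest upstream. They lie at chr12:56752324-56752483 (minus strand) for PRIM1, chr16:46689499-46689658 (plus strand) for ORC6, chr11:4094525-4094684 (plus strand) for RRM1, chr17:78187205-78187364 (minus strand) for TK1, chr7:100101398-100101557 (minus strand) for MCM7 and chr2:135876444-135876603 (minus strand) for MCM6. Capitals mark E2F-type letters (TTTCCCGC, TTTGGCGC, TTTCGCGC or TTTGCCGC), the CCAAT box that NF-Y binds (CCAAT) and the GC box that Sp1 binds (GGGCGG), each on either strand and with overlaps kept.
PRIM1: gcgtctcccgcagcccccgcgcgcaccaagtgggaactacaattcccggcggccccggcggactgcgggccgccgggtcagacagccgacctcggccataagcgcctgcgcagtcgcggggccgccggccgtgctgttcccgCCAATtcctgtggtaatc
ORC6: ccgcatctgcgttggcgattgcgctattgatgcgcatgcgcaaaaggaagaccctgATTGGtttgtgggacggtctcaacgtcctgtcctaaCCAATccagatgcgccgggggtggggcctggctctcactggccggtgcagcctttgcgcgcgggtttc
RRM1: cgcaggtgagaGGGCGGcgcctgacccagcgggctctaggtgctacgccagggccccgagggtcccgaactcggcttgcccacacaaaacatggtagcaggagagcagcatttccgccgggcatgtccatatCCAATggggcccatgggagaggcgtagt
TK1: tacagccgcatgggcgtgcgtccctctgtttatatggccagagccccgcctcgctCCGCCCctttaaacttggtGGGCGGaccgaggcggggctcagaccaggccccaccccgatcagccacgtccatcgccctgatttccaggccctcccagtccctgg
MCM7: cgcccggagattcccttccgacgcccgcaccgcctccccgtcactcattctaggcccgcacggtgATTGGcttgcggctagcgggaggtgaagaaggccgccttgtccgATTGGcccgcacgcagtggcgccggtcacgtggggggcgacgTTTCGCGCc
MCM6: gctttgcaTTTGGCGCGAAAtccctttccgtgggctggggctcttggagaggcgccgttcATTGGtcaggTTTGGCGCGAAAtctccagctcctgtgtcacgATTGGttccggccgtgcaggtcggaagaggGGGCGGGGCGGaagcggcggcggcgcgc

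RefSeq windows of 250 bases before the start were found for 36 of the 45 genes. E2F-type letters stood in at least 1 window of 15 of these 36 genes (41.7%), against 4.66% of 14239 genes on the array with a window. The CCAAT box was found in 61.1% of the 36 genes and in 40.4% of the genes on the array, and the GC box in 75% and 63.7%. The median GC content was 68.2% over the windows of the replication genes and 62.4% over those of the genes on the array. MCM6 carried overlapping E2F-type letters at 2 places, starting at positions -152 and -90 relative to its start. MCM7 carried TTTCGCGC at position -9 and TTTCCCGC, on the other strand, at position -187, outside the stretch shown. Of the MCM7 windows only the one farthest upstream, used for the stretch shown, held such letters. For TK1, the window not shown held CCAAT boxes at positions -77 and -46, and the stretch shown held none. These are matches of letters only and show neither binding nor its absence.

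Signals are on the log2 scale, so a difference of 1 is a doubling. A level also depends on how well its probes bind, so ranks among probe sets are given below only to mark signals near background and show no order of RNA amounts. DDX5, the targeted gene, was 9.47, 9.79 and 9.91 on the knockdown arrays 1, 2 and 3, against 10.09, 10.25 and 10.30 on the wild-type arrays, so that the groups did not overlap and the knockdown mean was 71.2% of the wild type (95% interval 58.4% to 86.9%; adjusted p = 0.902, limma). No gene of the 18417 passed an adjusted p of 0.05 in limma with Benjamini-Hochberg adjustment, while 937 (5.09%) had an unadjusted p under 0.05. Of 7 genes taken as U-87 markers, VIM, S100A6, NES, SPARC and FN1 had mean signals at percentile 97.6, 92.0, 79.9, 68.1 and 51.9 of all genes, and CD44 and TNC at 24.7 and 28.1. Of 3 housekeeping genes, chosen after their values were seen, GAPDH and ACTB were near the top and B2M at percentile 22.7. CD44, TNC and B2M are normally abundant in such cells, so the markers match the labelled line only in part, and every result below is given for these samples as labelled. The cause was not tested. Of 17 measured markers of other cell types, 9 were among the dimmest 40% of genes, and the 17 ran from percentile 7.86 to 79.3, where RBFOX3 (neurons) and GFAP (astrocytes, percentile 75.9) were the highest. These ranks do not separate the U-87 markers from those of other cell types. The summed log2 signal of the 4 neuronal markers was 19.03 to 19.57 on the knockdown arrays and 18.58 to 18.69 on the wild-type arrays. Within this sum, STMN2, SYT1 and RBFOX3 had log2 differences of 0.32, 0.20 and 0.18, and SNAP25 of -0.09. The sums of the other lists overlapped between the groups. Among markers of the other cell types, AQP4 (0.37) and CD14 (0.42) were higher on all knockdown arrays (background 5.98%). SLC1A3 (-0.17) was lower on all of them (background 4.15%). The mean signals of AQP4, CD14 and SLC1A3 were 2.90, 4.25 and 3.70, and those of STMN2 and SYT1 were 4.18 and 3.87. All of these lay under 4.68, the olfactory receptor level described below, while RBFOX3 and SNAP25 lay above it. The part of these markers in the results was not tested.

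Of the 45 probe sets, 16 had a mean signal under 4.68, the level below which 95% of 361 olfactory receptor genes fell. Of all genes, 50.1% had a mean signal under this level. Olfactory receptors are normally silent outside the nose, so a signal of this size was not set apart from background by its level. The 16 were CCNE1, E2F8, ORC6, CDC6, GINS3, GINS4, POLA2, POLD3, PCNA, RFC1, RFC2, RFC3, RFC5, RPA2, RPA3 and RRM2.

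None of the 45 genes passed an adjusted p of 0.05 (background 0%), and the smallest adjusted p among them was 0.902 (limma). As a list, 33 of the 45 (73.3%) had a log2 difference below 0, 10 above 0 and 2 (MCM2 and MCM4) at 0, where 46.5% of all genes lay below 0. The median log2 difference was -0.07, against 0.01 over all genes. An unadjusted p under 0.05 was found for 4 of the 45, PRIM1, ORC6, RRM1 and TK1, all lower in the knockdown (background 2.06%), and for none in the other direction (background 3.02%). All 3 knockdown arrays lay below all 3 wild-type arrays for 7 genes (15.6%; background 4.15%), which were ORC6, MCM6, MCM10, GINS3, RFC1, RRM1 and TK1, and above them for 1 gene, MCM7 (2.22%; background 5.98%). The differences were small: 41 of the 45 were under 0.25 in absolute size, as were 92.1% of all genes. Leaving out knockdown replicate 2 gave the fewest genes below 0 (27) and the smallest median shift (-0.03), while leaving out wild-type replicate 3 gave the most (35, as did leaving out knockdown replicate 1) and a median of -0.10. The number with an unadjusted p under 0.05 was 7 without knockdown replicate 3, 1 without wild-type replicate 2 or 3, and 2 without any of the others. As a share of the 45 this was 15.6% without knockdown replicate 3, against 6.42% of all genes, and 4.44% without knockdown replicate 2, against 3.71%. In the other 4 settings it was below the share of all genes, for example 4.44% against 7.35% without knockdown replicate 1. The members were chosen with earlier results of these data known, so these counts describe the list and do not test it.

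**Figure D1:**
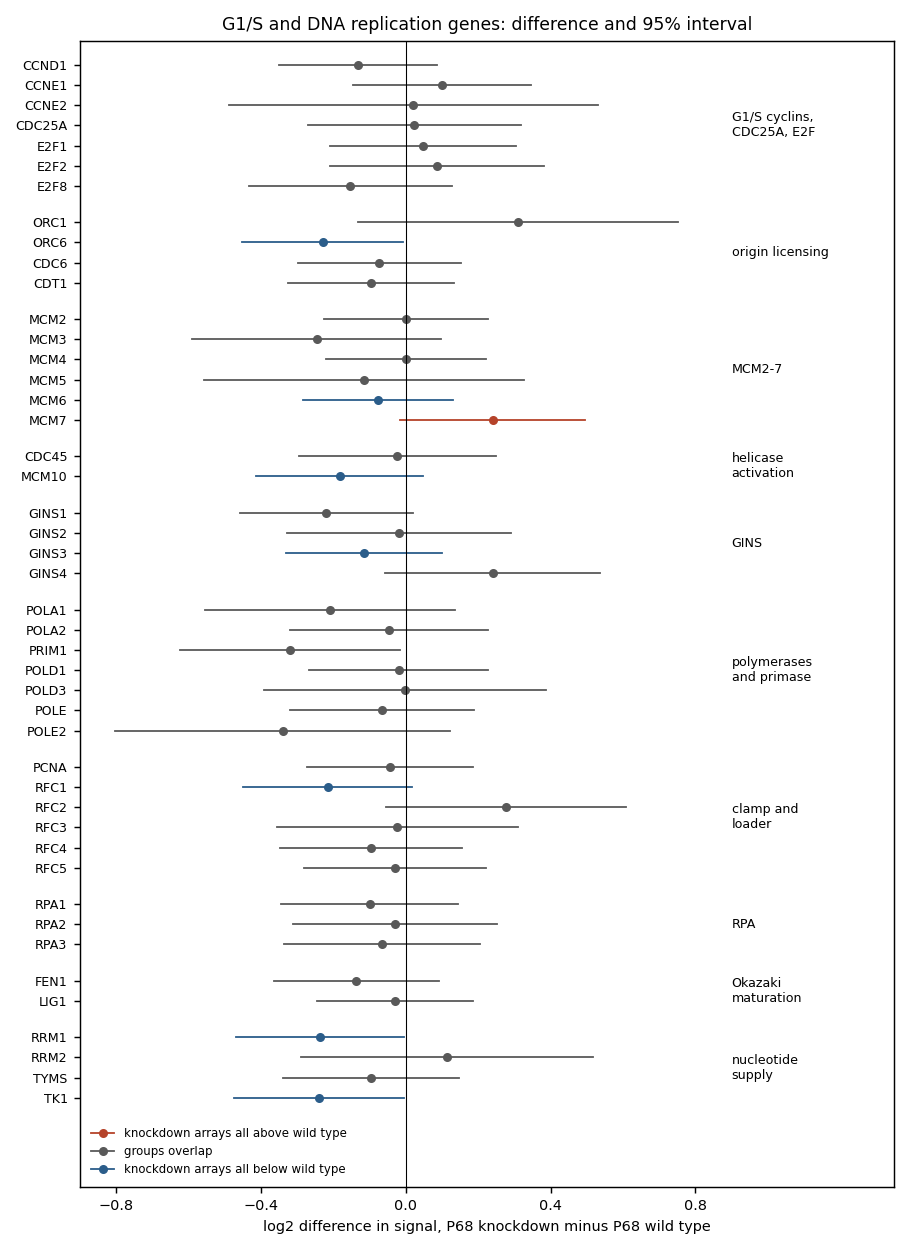
Log2 difference in signal, P68 knockdown minus P68 wild type, with its 95% confidence interval (limma, 3 arrays a group), for the 45 genes (rows) grouped by role. Red and blue mark genes whose knockdown arrays all lay above or below the wild type, grey those whose groups overlapped. Most points lie left of 0, the intervals of PRIM1, ORC6, RRM1 and TK1 end just below 0, and MCM7 is the gene whose knockdown arrays all lay above the wild type.

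**Figure D2:**
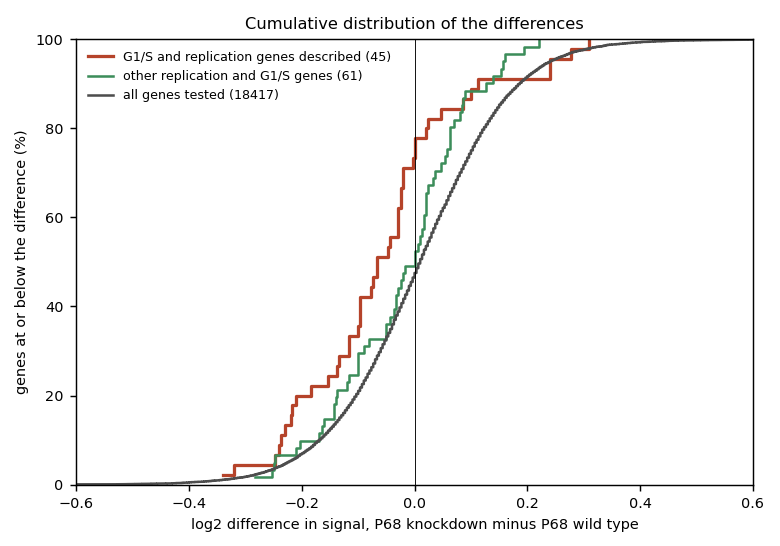
Share of genes (vertical axis, in %) at or below each log2 difference (horizontal axis, P68 knockdown minus P68 wild type) for the 45 replication and G1/S genes, 61 other genes of the same pathway and all 18417 genes. At 0 the curve of the 45 genes stands above both others, with a median of -0.07 against 0.00 for the 61 genes and 0.01 for all genes.

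The genes that control entry into S phase did not share a direction. Of 7 such genes, 5 lay above 0 and 2 below, and the median of 0.02 became -0.09 when knockdown replicate 1 was left out and 0.14 when wild-type replicate 1 was. CCND1, the D-type cyclin that starts the commitment, was 6.33, 6.32 and 6.44 in the knockdown, against 6.42, 6.52 and 6.55 in the wild type. Its groups overlapped by a narrow margin, at a log2 difference of -0.13 ± 0.10 (SE). E2F8, an atypical E2F that represses E2F targets, had the largest absolute difference of the 7, at a signal under the olfactory receptor level: its knockdown arrays read 3.47, 3.43 and 3.31, against 3.80, 3.51 and 3.36 in the wild type, a log2 difference of -0.15 ± 0.13 (SE; adjusted p = 0.912, limma). The gap rested mainly on wild-type replicate 1, without which the difference was -0.03. CCNE2, a cyclin E that activates CDK2, spread most within a group, at 6.60, 5.66 and 5.72 in the knockdown, against 6.25, 5.93 and 5.74 in the wild type. Replicate 1 was the brightest in both groups, and the log2 difference was 0.02 ± 0.23 (SE) with all arrays and -0.28 without knockdown replicate 1. The activating factors E2F1 and E2F2, the cyclin CCNE1 and the phosphatase CDC25A, which removes inhibitory phosphates from CDK2, gave log2 differences of 0.05, 0.09, 0.10 and 0.02. The signs of E2F1, E2F2 and CDC25A turned in single leave-outs.

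Within origin licensing, the origin recognition subunits ORC6 and ORC1 had differences of opposite sign. ORC6, the smallest subunit of the origin recognition complex, was 3.65, 3.83 and 3.75 in the knockdown, against 4.01, 3.90 and 4.01 in the wild type. Every knockdown array lay below every wild-type array. The means were 3.74 ± 0.09 and 3.97 ± 0.06 (SD, n = 3 each), with knockdown minus wild type at -0.23 ± 0.10 on the log2 scale (SE; adjusted p = 0.902, limma). ORC6 is also among the 16 genes at the level of the olfactory receptors. ORC1, the ATPase subunit that is rebuilt in each G1 phase, read 5.42, 4.53 and 4.69 in the knockdown, against 4.72, 4.53 and 4.46 in the wild type. Knockdown replicate 1 alone stood high, and the log2 difference of 0.31 ± 0.20 (SE; adjusted p = 0.902, limma) was 0.04 without it. The loading factors CDC6 and CDT1 gave -0.07 ± 0.10 and -0.10 ± 0.10 (SE).

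The 6 subunits of the MCM ring, which assemble in equal numbers, had differences on both sides of 0. MCM7 read 5.44, 5.18 and 5.10 in the knockdown, against 4.96, 4.96 and 5.08 in the wild type. All knockdown arrays were higher, and knockdown replicate 3 only just, at a log2 difference of 0.24 ± 0.12 (SE; adjusted p = 0.902, limma), or 118% of wild type (95% interval 99.0% to 141%). Without knockdown replicate 1 the difference was 0.14. MCM6, by contrast, gave 5.21, 5.18 and 5.15 in the knockdown, against 5.29, 5.25 and 5.23 in the wild type. These groups did not overlap either, with SDs of 0.03 in each group, but the log2 difference was only -0.08 ± 0.09 (SE; adjusted p = 0.929, limma). MCM3 had the largest absolute difference of the ring, at 5.69, 5.14 and 5.70 in the knockdown, against 5.91, 5.70 and 5.66 in the wild type. Knockdown replicate 2 stood low, and the log2 difference of -0.25 ± 0.16 (SE; adjusted p = 0.902, limma) was -0.06 without it. MCM5 was bright on both replicate 1 arrays (6.22 in the knockdown, against 6.28 in the wild type) and between 5.55 and 5.92 on the others, for a log2 difference of -0.12 ± 0.20 (SE). MCM2 and MCM4 had equal group means, with 95% confidence intervals of -0.23 to 0.23 and -0.22 to 0.22 on the log2 difference.

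MCM10, which helps to open the loaded helicase, was 4.70, 4.83 and 4.91 in the knockdown, against 4.93, 5.08 and 4.98 in the wild type. The knockdown arrays were all lower, at a log2 difference of -0.18 ± 0.10 (SE; adjusted p = 0.902, limma). CDC45, the helicase cofactor, gave -0.02 ± 0.12 (SE), and its groups overlapped. The 4 GINS subunits, which also work as a complex of equal parts, spanned both signs. GINS4 read 4.21, 4.24 and 3.98 in the knockdown, against 4.16, 3.83 and 3.72 in the wild type, a log2 difference of 0.24 ± 0.13 (SE; adjusted p = 0.902, limma) that was 0.37 without wild-type replicate 1 and 0.15 without wild-type replicate 3. GINS1 read 4.76, 4.57 and 4.66 in the knockdown, against 4.89, 5.0 and 4.76 in the wild type, so that the groups touched at 4.76, at a log2 difference of -0.22 ± 0.11 (SE). GINS3 read 4.47, 4.48 and 4.37 in the knockdown, against 4.49, 4.59 and 4.59 in the wild type. Its knockdown arrays were all lower, but only just, at a log2 difference of -0.12 ± 0.10 (SE). GINS2 gave -0.02 ± 0.14 (SE). GINS4 lay below the olfactory receptor level, as did GINS3.

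All 7 polymerase and primase genes lay below 0, with a median of -0.07, but only 4 did so without knockdown replicate 2. PRIM1, the catalytic subunit of primase, which makes the RNA primers, had the smallest p of the 45 genes. Its signal was 5.33, 5.08 and 5.62 in the knockdown, against 5.61, 5.63 and 5.75 in the wild type, or 5.34 ± 0.27 and 5.66 ± 0.08 (SD, n = 3 each). Knockdown replicate 3 lay inside the wild-type range and the other two below it. The log2 difference was -0.32 ± 0.14 (SE; adjusted p = 0.902, limma), or 80.1% of wild type (95% interval 64.9% to 98.8%), and leaving out knockdown replicate 2 made it -0.19. POLE2, the second subunit of the leading-strand polymerase epsilon, had the largest absolute difference of the 45 and also a wide spread, at 4.59, 4.19 and 5.13 in the knockdown, against 4.75, 4.99 and 5.19 in the wild type. Its log2 difference was -0.34 ± 0.21 (SE; adjusted p = 0.902, limma) with all arrays. Leaving out knockdown replicate 2 made it -0.12, and leaving out replicate 3 made it -0.59. POLA1, the catalytic subunit of the polymerase alpha that extends the primers, read 5.63, 5.83 and 6.19 in the knockdown, against 5.87, 6.27 and 6.14 in the wild type, a log2 difference of -0.21 ± 0.16 (SE) that was -0.08 without knockdown replicate 1. PRIM1, POLE2 and POLA1 were all brightest, within the knockdown, on replicate 3. The other subunits, POLA2, POLD1 and POLD3 of polymerase delta, and POLE, the catalytic subunit of polymerase epsilon, lay between -0.07 and 0.

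The sliding clamp itself differed little, with PCNA at 4.25, 4.26 and 4.06 in the knockdown, against 4.29, 4.24 and 4.17 in the wild type, a log2 difference of -0.04 ± 0.10 (SE). Among the 5 subunits of the clamp loader RFC, 4 lay below 0 and RFC2 above. RFC1, the large subunit, was 3.66, 3.67 and 3.82 in the knockdown, against 4.04, 3.93 and 3.83 in the wild type. The groups missed each other by 0.01, and the log2 difference was -0.22 ± 0.10 (SE; adjusted p = 0.902, limma). RFC2, a small subunit shared with the checkpoint loaders, was 4.62, 4.99 and 4.40 in the knockdown, against 4.51, 4.25 and 4.42 in the wild type. Knockdown replicate 2 was high, and the log2 difference of 0.28 ± 0.15 (SE; adjusted p = 0.902, limma) was 0.12 without it. RFC3, RFC4 and RFC5 gave -0.02, -0.10 and -0.03. PCNA, RFC1, RFC2, RFC3 and RFC5 were all below the olfactory receptor level.

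RPA, the complex that coats single-stranded DNA, showed small differences, with 3 of 3 subunits below 0 and none past -0.10. RPA1, the large DNA-binding subunit, read 4.93, 5.11 and 5.12 in the knockdown, against 5.30, 5.08 and 5.08 in the wild type, a log2 difference of -0.10 ± 0.11 (SE; adjusted p = 0.925, limma) that was -0.03 without wild-type replicate 1. FEN1, the nuclease that trims the flaps of Okazaki fragments, read 5.18, 5.38 and 5.27 in the knockdown, against 5.38, 5.50 and 5.36 in the wild type. Its groups overlapped and gave -0.14 ± 0.10 (log2 difference ± SE; adjusted p = 0.912, limma), and LIG1, the ligase that joins the fragments, gave -0.03 ± 0.10 (SE).

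Nucleotide supply had the lowest median of the 10 groups, at -0.17 over 4 genes. RRM1, the large subunit of ribonucleotide reductase, which makes deoxyribonucleotides, was 5.53, 5.34 and 5.55 in the knockdown, against 5.79, 5.70 and 5.64 in the wild type. The knockdown arrays were all lower, with means of 5.47 ± 0.12 and 5.71 ± 0.08 (SD, n = 3 each). This is -0.24 ± 0.10 on the log2 scale (SE; adjusted p = 0.902, limma), or 84.9% of wild type (95% interval 72.2% to 99.7%). TK1, the thymidine kinase of S phase, was 5.38, 5.25 and 5.41 in the knockdown, against 5.45, 5.66 and 5.65 in the wild type. Again no knockdown array reached the wild type, at a log2 difference of -0.24 ± 0.11 (SE; adjusted p = 0.902, limma), or 84.7% of wild type (95% interval 71.9% to 99.7%). RRM1 ran from -0.275 to -0.17 and TK1 from -0.31 to -0.19 with any 1 array left out. RRM2, the small subunit that limits reductase activity in S phase, had a difference of the other sign and read 3.10, 2.69 and 2.70 in the knockdown, against 3.14, 2.51 and 2.50 in the wild type. Both replicate 1 arrays stood above the others, the log2 difference was 0.11 ± 0.18 (SE), and RRM2 lies under the olfactory receptor level. TYMS, the thymidylate synthase, gave -0.10 ± 0.11 (SE).

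**Figure D3:**
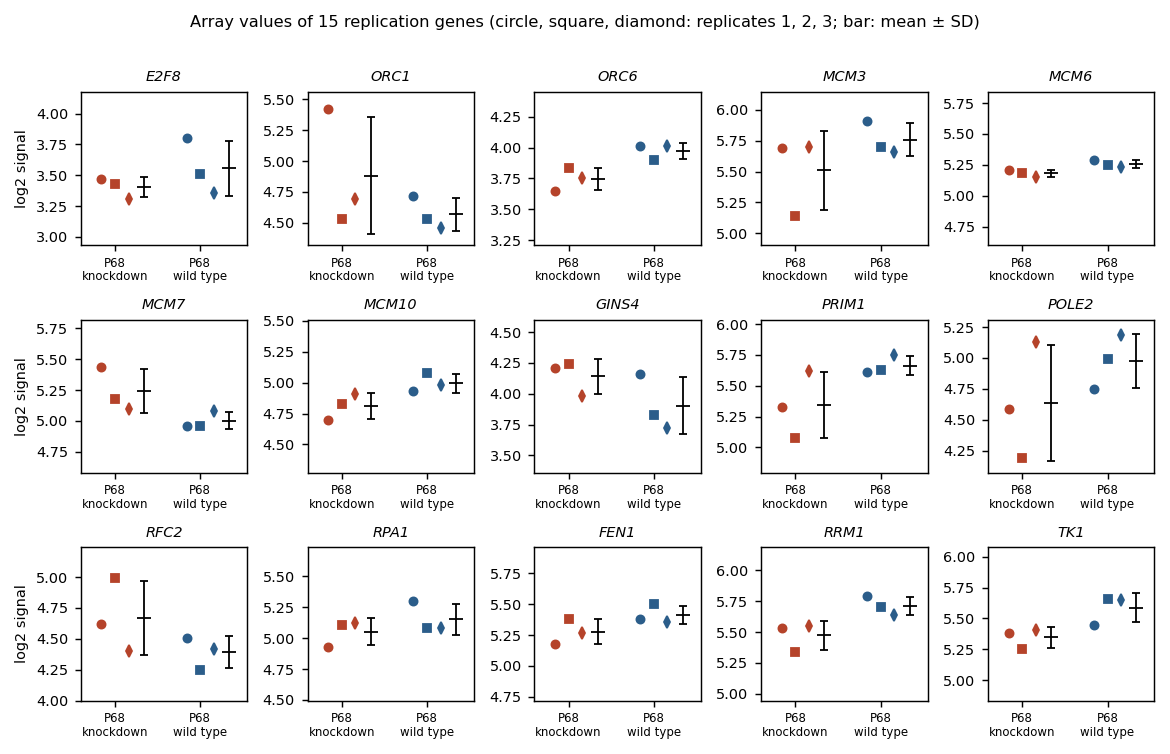
Log2 signal (vertical axis, each panel spanning the same range) of 15 of the genes on each array, with the 3 P68 knockdown arrays left and the 3 P68 wild-type arrays right, and the mean ± SD beside them. ORC6, MCM6, MCM10, RRM1 and TK1 show knockdown arrays below the wild type, by a narrow margin for MCM6, MCM10 and TK1. MCM7 shows them above. ORC1, MCM3 and RFC2 each have 1 knockdown array apart from the others, and POLE2 has a wide spread in the knockdown.

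Within the groups the genes varied from array to array. Measured as the median deviation of the 45 genes from their own mean over the 6 arrays, knockdown replicates 1, 2 and 3 stood at 0.01, -0.10 and -0.04, against 0.08, 0.045 and -0.03 in wild-type replicates 1, 2 and 3. Knockdown replicate 3 and wild-type replicate 3 thus nearly coincided, and knockdown replicate 1 lay inside the wild-type range. Over all genes the same median lay between -0.01 and 0.02 on every array. Knockdown replicate 2 was the lowest array for 17 of the 45 genes and wild-type replicate 1 the highest for 16. The same was not counted over all genes, so these numbers may reflect the arrays as a whole. Within the knockdown, the DDX5 signal was lowest on replicate 1 (9.47), and the replication genes were lowest on replicate 2 (DDX5 at 9.79). A relation between both was not tested, and 3 arrays are too few to show one. For 14 of the 45 genes (31.1%) replicate 1 was the brightest array in both groups, as it was for 14.6% of all genes. These 14 were CCNE1, CCNE2, CDC25A, E2F2, E2F8, ORC1, CDC6, MCM5, MCM6, POLD1, POLD3, POLE, RFC3 and RRM2. Across the 45 genes, deviations from the group mean correlated with r = 0.526 between knockdown replicate 1 and wild-type replicate 1, r = 0.0935 between the replicates 2 and r = 0.531 between the replicates 3. This is a description across genes, which share arrays and are not independent. The labels do not say what a replicate number stands for.

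**Figure D4:**
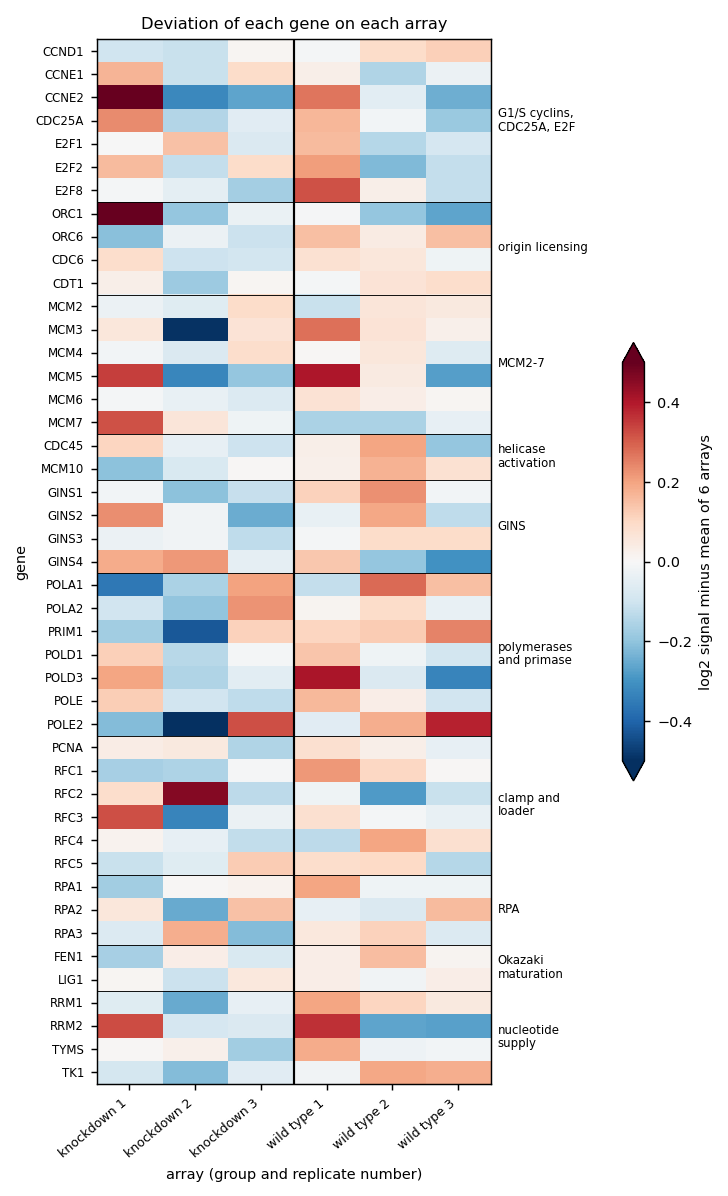
Deviation of each of the 45 genes (rows, grouped by role) on each array (columns, P68 knockdown left, P68 wild type right) from its mean over the 6 arrays, in log2 units, with the colour scale ending at 0.5 in each direction. Both replicate 1 arrays are red for CCNE2, MCM5, POLD3 and RRM2, and knockdown replicate 2 is blue for MCM3, PRIM1 and POLE2.

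**Figure D5:**
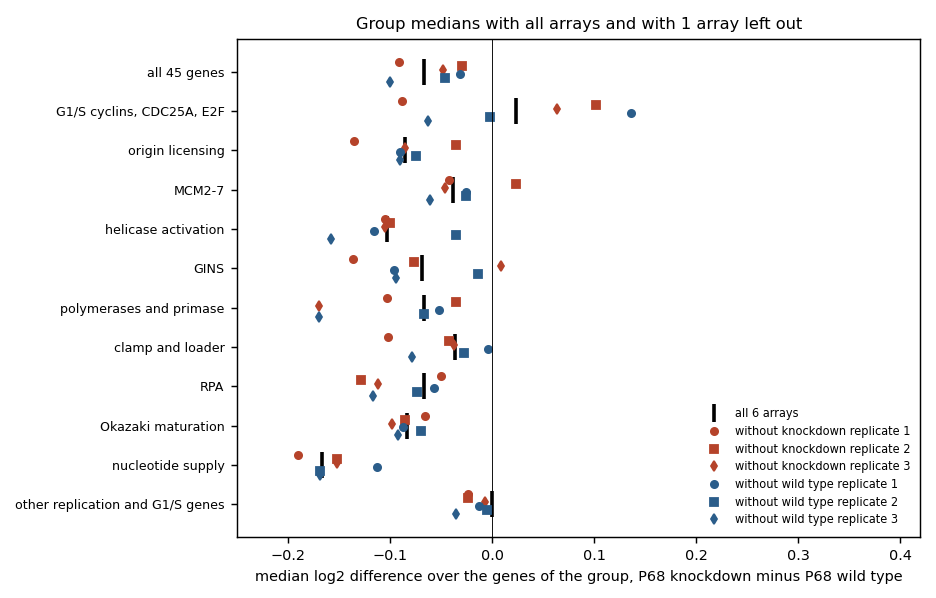
Median log2 difference, P68 knockdown minus P68 wild type, of each group of genes (rows) with all 6 arrays (bar) and with 1 array left out (symbols). The medians of the G1/S control genes, the MCM ring and GINS cross 0 with single arrays left out, and those of the other 7 groups of the 45 genes stay below 0.

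Other genes of the same pathway, 61 in number, were split about evenly: 30 of the 61 lay below 0 (49.2%), 29 above and 2 at 0, with a median of 0.00, and none had an unadjusted p under 0.05 (background 5.09%). Many of the 61 also had mean signals under the olfactory receptor level, for example ORC2 (3.32), DBF4 (2.65) and TIPIN (2.35). Their number was not counted, so the split of this list includes genes not set apart from background. The difference between both lists was not tested. Among the remaining subunits of the same complexes (ORC2 to ORC5, POLD2, POLD4, POLE3, POLE4 and PRIM2), 5 of 9 lay below 0. PRIM2, the partner of PRIM1 in primase, gave 0.09, where PRIM1 gave -0.32. The mean signal of PRIM2 was 2.81, under the olfactory receptor level, and that of PRIM1 was 5.50. The PRIM2 value was thus not set apart from background. Of 20 firing, checkpoint and fork factors 8 lay below 0, of 7 chromatin assembly genes 5, of 7 other nucleotide enzymes 2 and of 18 other G1/S control genes 10. The groups did not overlap for 2 of the 61 genes (3.28%), where 4.15% of all genes were lower and 5.98% higher in this way. CDK4, the partner kinase of cyclin D, read 6.15, 6.01 and 6.11 in the knockdown, against 6.25, 6.26 and 6.24 in the wild type, and TICRR, which helps origins to fire, read 4.43, 4.31 and 4.37 in the knockdown, against 4.25, 4.02 and 4.18 in the wild type. Both were named after their values were seen, and each had an adjusted p of 0.902 (limma). TICRR lay under the olfactory receptor level, at a mean signal of 4.26.

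Most genes lay below 0 with and without E2F-type letters in the promoter window, and the difference between these groups was not tested. Of the 15 genes with these letters 11 lay below 0, with a median of -0.04 and a range from -0.25 (MCM3) to 0.24 (MCM7). Of the 21 genes with a window but without these letters 16 lay below 0, with a median of -0.10 and a range from -0.34 (POLE2) to 0.31 (ORC1). PRIM1, ORC6, RRM1 and TK1, the 4 with the smallest p, are among the 21. Of the 9 genes with no window used here, 6 lay below 0. At the level of olfactory receptors or above, 21 of 29 genes lay below 0 (median -0.10), and below that level 12 of 16 did (median -0.04).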

How the data were processed

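The deposited table holds log2 signals of 29096 probe sets on 6 arrays; the authors made them with RMA, per the submitters' processing notes, which name no software version. RMA gives all arrays about the same distribution, so a shift common to most genes cannot be seen. Probe sets with 1 symbol (19460; 1754 had several and 7882 none) were reduced to 18417 genes by the highest mean, and knockdown and wild type were compared with limma 3.58.1 (lmFit, eBayes, two-sided) in R 4.3.3, adjusted by Benjamini-Hochberg over all genes at 0.05. The fit was tested on simulated data in which every planted difference was larger than any of the 45 here. That check does not show how well differences of the size reported are recovered. Members, lists and alternatives were chosen with earlier results of these data known. The full statistics are given for the largest absolute difference of each group of genes and for unadjusted p under 0.05, and other members were described after their values were seen. No array was a copy of another (SD of the difference between 2 arrays at least 0.217). The number of arrays limits the precision: the standard errors of the 45 differences had a median of 0.11. In an exact permutation test, 3 arrays against 3 cannot go below p = 0.1. A listed gene of the same pathway is not reported here. All 45 symbols matched the RefSeq table, whose promoter windows (GRCh38.p14) were searched by exact letters. No build is given for the probe sets, so their coordinates are not given.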

Additional observations from a re-analysis of the deposited data

How the results depend on the processing

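No gene passed an adjusted p of 0.05 under any alternative run (limma): each array centred on its median, a repeated quantile normalization, cyclic loess, a filter that dropped the dimmest 40% of genes, averaged or separate probe sets, trend and robust moderation, array weights, a replicate block and each array left out in turn. Centring, quantile normalization and loess put 5 of the MCM2 to MCM7 genes below 0, and the median signal of the 45 genes on wild-type replicate 2 at 5.01. Without the dimmest 40% of genes, which leaves fewer genes, the median signal was 5.33, 5.14 and 5.23 on the knockdown arrays, against 5.35, 5.25 and 5.23 on the wild-type arrays. There, 19 of the other pathway genes lay below 0 and 1 had groups that did not overlap. The numbers below 0 were 1 for G1/S control, 1 for licensing (median 0.11) and 2 for the clamp and its loader. The polymerase median was -0.21. The filter dropped 12 of the 45 genes and also genes of the other list, so these counts cannot be set beside those without it. The share of all genes whose groups did not overlap was not counted with this filter. With array weights, 2 of the 45 genes and 1 other pathway gene had an unadjusted p under 0.05, 4 polymerase genes lay below 0, and the sign turned for CCNE2 (-0.0075), POLA2 (0.040), POLD1 (0.0067), POLD3 (0.061), RFC5 (0.039) and RPA2 (0.0070). The cause was not tested. Whether replicate numbers pair the arrays is not stated and was not tested. Over all genes, deviations from the group mean correlated at 0.268, -0.0273 and 0.125 between same-numbered arrays of both groups. Between differently numbered arrays they correlated at -0.251 to 0.17. With the replicate block, 0 genes passed the adjusted p, and 3 of the 45 and 2 other pathway genes had an unadjusted p under 0.05. The share of all genes under that p was not counted with array weights or with the replicate block. These counts therefore stand without a background. With 1 array left out, 1 to 7 of the 45 genes had an unadjusted p under 0.05 (2.22% to 15.6%, against 2.95% to 7.35% of all genes) and 8 to 15 had groups that did not overlap (17.8% to 33.3%, against 16.8% to 23.3%). For the other pathway genes these numbers were 0 to 5 and 5 to 11, with a median of -0.035 to -0.005. The numbers below 0 were 2 to 5 for G1/S control, 2 to 5 for the MCM ring (median -0.061 to 0.023), 1 to 2 for helicase activation, 4 to 7 for the polymerases, 3 to 5 for the clamp and loader (median -0.10 to -0.0042) and 1 to 2 for Okazaki maturation, and the RPA median was -0.13 to -0.05. The sign turned with 1 array left out for CCNE2 (-0.28 to 0.19), CDC25A (-0.088 to 0.11), E2F1 (-0.015 to 0.14), E2F2 (-0.0017 to 0.21), MCM5 (-0.32 to 0.057), CDC45 (-0.125 to 0.07), GINS2 (-0.14 to 0.10), POLA2 (-0.17 to 0.04), POLD1 (-0.085 to 0.045), POLD3 (-0.17 to 0.20), PCNA (-0.078 to 0.022), RFC3 (-0.19 to 0.135), RFC5 (-0.11 to 0.018), RPA2 (-0.11 to 0.088), RPA3 (-0.175 to 0.025), LIG1 (-0.063 to 0.017) and RRM2 (-0.022 to 0.325). MCM2 and MCM4, at 0 with all arrays, went to both sides of it. For the 16 genes at the level of the olfactory receptors, signal over background limits what the arrays can show.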
